A study of Mus musculus with 6 samples.

Results

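Transcript levels of 10 enzymes of transsulfuration, the methionine cycle, betaine breakdown, glycine and serine metabolism and creatine precursor synthesis were described in the kidneys of cisplatin-treated WT and Trpm2-/- mice. The members were the rows named Cth, Cbs, Ahcy, Bhmt, Dmgdh, Sardh, Gldc, Gatm, Phgdh and Shmt1, 10 of the 54532 genes in the deposited tables, and all 10 were among the 15816 genes that passed the filter on low counts. RNA was sequenced from whole kidneys of 3 WT and 3 Trpm2-/- mice of the C57BL/6J strain, aged 6 to 8 weeks according to the labels. The methods of the study give an older age range for these mice, and which applies to the sequenced kidneys was not settled here. Every mouse of both genotypes received 18 mg/kg cisplatin, a platinum drug toxic to tubular cells, and was examined at 72 h as a model of acute kidney injury, so no untreated kidney stands beside these values. The Trpm2-/- mice carry an allele that lacks exons for part of the transmembrane region of TRPM2, a cation channel opened by oxidative stress. By the methods of the study, WT mice were bought and the Trpm2-/- mice came from the University of Leeds. Genotype and source of the mice therefore cannot be told apart in these values. The libraries are numbered 1, 2 and 3 for WT and 1, 2 and 4 for Trpm2-/-.

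Methionine gives S-adenosylmethionine, the methyl donor of the cell, and the spent donor is cleaved to homocysteine. Homocysteine is either methylated back to methionine, with betaine or folate as the donor, or passed through transsulfuration to cysteine, a building block of glutathione and taurine. The methyl groups of betaine are then removed from dimethylglycine and sarcosine in mitochondria, which leaves glycine. Glycine and serine are interconverted and feed the folate pool with single carbons. The proximal tubule of the kidney is known for making serine from glycine and for the first step of creatine synthesis.

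Lower transcript levels in Trpm2-/- kidneys were measured for most of these enzymes. By the quasi-likelihood test of edgeR, 8 of the 10 members were lower in Trpm2-/- kidneys with an adjusted p below 0.05, and 7.28% of all genes tested were lower by that rule. Because the members were chosen with earlier results of these data known, this contrast and those below are descriptive and no test of the list. The members called higher numbered 0, against 4.74% of all genes tested, and also 0 at an unadjusted p below 0.05 in edgeR and 0 at an adjusted p below 0.05 in DESeq2. Without the filter on low counts 1 member, Phgdh, was called higher by edgeR (adjusted p = 0.0149). In that fit the standard error of Phgdh was 0.173, against 0.307 with the filter, and that of Gldc 0.178 against 0.263. Both were then close to that of Cth (0.171), although Phgdh varied more between mice. The coefficient of variation of Phgdh was 26.4% in WT and 45.5% in Trpm2-/- libraries, against 13.7% and 6.84% for Cth. The cause of the smaller standard errors was not tested. The unadjusted p of Phgdh in edgeR was 0.0284 with the replicate number as a block, 0.0424 without WT replicate 1 and 0.00957 without Trpm2-/- replicate 4. The adjusted p values were 0.177, 0.176 and 0.0689. In the block fit WT library 3 and Trpm2-/- library 4 have no partner, so its genotype difference rests on libraries 1 and 2 alone. With the threshold of the study, a log2 change of more than 1 in size with an unadjusted p below 0.05, 6 members were lower, against 4.1% of all genes, and 0 were higher, against 3.5%. All 3 Trpm2-/- libraries lay below all 3 WT libraries in 8 members, against 16.8% of all genes, and above them in 0 members, against 16.7%. The median log2 fold change of the 10 members was -1.43, and that of all genes tested was 0.02. The members together took 25169 to 29641 reads in a WT library and 10206 to 13839 in a Trpm2-/- library.

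**Figure D1:**
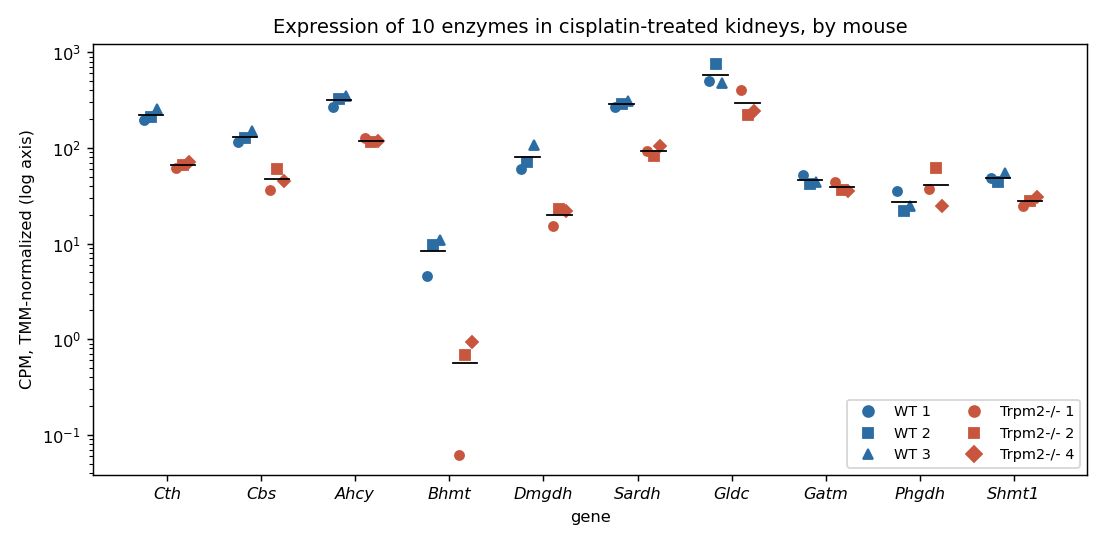
CPM (counts scaled to a common library size with TMM factors, log axis) of the 10 enzymes in each of the 6 kidneys, with 1 point per mouse and a black bar at the mean of each genotype. The Trpm2-/- points of 8 genes lie below every WT point, while those of Gatm and Phgdh overlap with WT.

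The depth of the libraries was 14053307 to 17150089 counts on genes, so that 3 counts correspond to 0.175 to 0.213 CPM (counts scaled to a common library size), a limit that covers counting error only. Genes of the mitochondrial genome took 4.43% to 4.72% of counts in WT and 7.91% to 11% in Trpm2-/- libraries, and a fit without them called the same number of members lower (8). Trpm2 had 5, 5 and 27 counts in WT and 10, 16 and 20 in Trpm2-/- kidneys. Its log2 fold change was 0.36 (edgeR adjusted p = 0.776). With 1 count per gene, reads on the deleted exons cannot be told from reads on the others, and the genotype is left unchecked by this gene.

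Markers of the proximal tubule, the segment where several of these enzymes are known to be abundant, were lower in Trpm2-/- kidneys. So were 8 of the 10 members, whereas Gatm and Phgdh were not called. Of 10 proximal tubule markers, 10 were lower at an adjusted p under 0.05 in edgeR, with log2 fold changes from -2.73 to -0.76 and a median of -1.57. Their summed level was 4773 to 6423 CPM in WT and 2021 to 2476 CPM in Trpm2-/- libraries. Among them were Slc27a2 (-0.97), a fatty acid transporter, Slc34a1 (-2.73), the phosphate carrier of the brush border, and Aqp1 (-1.88), a water channel. Some markers of other segments were lower too. Of 6 collecting duct markers 2 were lower at an adjusted p under 0.05 in edgeR, the water channels Aqp2 (-1.02) and Aqp3 (-0.47). Hsd11b2 (-0.23), Atp6v1g3 (0.01), Slc26a4 (0.25) and Slc4a1 (-1.57) were not called. The list summed to 1370 to 1664 CPM in WT and 828 to 1016 CPM in Trpm2-/- libraries. Most of that was Aqp2 alone, with 969.7 to 1273 CPM in WT and 484 to 626 CPM in Trpm2-/- libraries. Of 5 tested markers of the thick ascending limb and distal tubule 1 was lower, Umod (-1.97), which encodes uromodulin. Slc12a1 (-0.76) and Calb1 (-0.46), the next by level, were not called. This list summed to 1044 to 2269 CPM in WT and 369 to 1103 CPM in Trpm2-/- libraries. In whole kidney RNA, fewer cells of a type and less RNA per cell cannot be told apart, and the part of these markers in the members' values was not tested. Markers of tubular injury summed to 17892 to 19791 CPM in WT and 19918 to 28133 CPM in Trpm2-/- libraries. The most abundant, Spp1, Clu and Havcr1, did not pass the adjusted test. Called higher were 2 of these 10, Krt20 (0.79) and Sox9 (1.16), which were named after their values were seen. The hepatocyte markers, a check because liver is rich in several of the members, summed to 161 to 257 CPM in WT and 107 to 271 CPM in Trpm2-/- libraries. Of 6 tested, 2 were lower, Ttr (-1.08) and Serpina1a (-1.11). Fgb, the most abundant, went the other way without being called (1.25, edgeR adjusted p = 0.135). It had 47.3, 81.5 and 32.1 CPM in WT and 207, 132 and 42.8 CPM in Trpm2-/- libraries, a large part of the sums. Alb, which encodes albumin, and Cps1 of the urea cycle, named after their values were seen, had at most 1.35 CPM and 0 counts. The list was thus mixed, as Serpina1a reached 153 CPM and Ttr 60.5 CPM in WT library 3. Trpm2-/- library 4 stood apart in podocyte markers, with a sum of 509.8 CPM against 130.4 to 173 CPM in the other 5 libraries, in endothelial markers, with 179 against 47.8 to 109 CPM, and in fibroblast markers, with 147 against 43.6 to 86.6 CPM.

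Cth encodes cystathionine gamma-lyase, which releases cysteine in the last step of transsulfuration. In GRCm38 it occupies chromosome 3 from 157894248 to 157925077, on the minus strand, and its principal transcript has 12 exons. Cth was measured at 197, 213 and 256 CPM in the WT libraries and at 61.6, 66 and 70.7 CPM in the Trpm2-/- libraries. The groups did not overlap, and the highest Trpm2-/- kidney was far below the lowest WT kidney. Its level fell 3.36-fold, from 222 ± 30.4 to 66.1 ± 4.52 CPM (SD, n = 3), with an edgeR adjusted p of 0.00126.

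Cbs encodes cystathionine beta-synthase, which joins homocysteine to serine and so commits sulfur to cysteine. It lies on chromosome 17 from 31612623 to 31637199, on the minus strand. Its values were 116, 126 and 152 CPM in WT and 36, 60.4 and 45.6 CPM in Trpm2-/- libraries 1, 2 and 4. All 3 Trpm2-/- kidneys were lower, with a wider spread than for Cth. The log2 fold change of Cbs was -1.47 (standard error 0.197, edgeR adjusted p = 0.00298), and by limma on log2(FPKM + 0.1) its adjusted p was 0.0515.

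Both transsulfuration genes can also be compared within a library, on the FPKM scale, which scales counts to the depth of the library and to the length of the gene. The ratio of Cth to Cbs was 2.04, 2.02 and 2.02 in the WT libraries, the narrowest spread among the ratios computed. It was 2.05, 1.31 and 1.85 in Trpm2-/- libraries 1, 2 and 4, so libraries 2 and 4 were below the WT range, with library 2, where Cbs was highest among them, the farther away. The difference of the mean log2 ratios was -0.25 (two-sided exact permutation test, p = 0.4).

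Ahcy encodes adenosylhomocysteinase, which cleaves S-adenosylhomocysteine to homocysteine and adenosine. It lies on chromosome 2 from 155059310 to 155074497, on the minus strand. Ahcy had 269.9, 327 and 345 CPM in WT and 126, 115 and 117 CPM in Trpm2-/- libraries. The 3 Trpm2-/- kidneys were close to each other and below every WT kidney, with a log2 fold change of -1.40 (standard error 0.141, edgeR adjusted p = 0.00126). Of the 75-base windows of its transcripts, 65.9% also occur in 3 other genes, among them Gm4737, so its reads may be split between copies. Gm4737 had 712, 768 and 762 counts in WT and 390, 209 and 223 counts in Trpm2-/- libraries. With the counts of these copies added to Ahcy, an alternative chosen after seeing the data, the log2 fold change was -1.39.

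Bhmt encodes betaine-homocysteine methyltransferase, which takes a methyl group from betaine to remake methionine. The gene lies on chromosome 13 from 93616675 to 93637961, on the minus strand, with 8 exons in its principal transcript. It had the fewest reads of the members, 75, 150 and 180 in the WT libraries and 1, 10 and 15 in Trpm2-/- libraries 1, 2 and 4. On the CPM scale these were 4.63, 9.64 and 11 against 0.0612, 0.683 and 0.934, and the single read in Trpm2-/- library 1 was under the limit of 3 counts. The groups did not overlap, and the log2 fold change of -3.91 (standard error 0.623, edgeR adjusted p = 0.00543) was the lowest of the members. Only 0.0569% of all genes tested had a lower one. It was -3.37 without Trpm2-/- replicate 1, -4.51 without Trpm2-/- replicate 4 and -4.33 by limma-voom. With the replicate number as a block, which compares libraries 1 and 2 only, it was -4.42. On the log2(FPKM + 1) scale, which understates the change of low genes, it was -1.05 (limma adjusted p = 0.0254). Without a filter on that scale the call of Bhmt was lost (limma adjusted p = 0.0558). Of its 75-base windows, 21.6% occur in other genes. The copy Gm5096 had 13, 9 and 12 counts in WT and 0, 1 and 0 in Trpm2-/- libraries.

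Dmgdh and Sardh encode dimethylglycine dehydrogenase and sarcosine dehydrogenase, a pair of mitochondrial flavin enzymes that remove the methyl groups left after the betaine step and hand them to folate. Dmgdh, on the plus strand of chromosome 13 from 93674433 to 93752833, had 60.6, 71.4 and 107 CPM in WT and 15.3, 22.8 and 21.8 CPM in Trpm2-/- libraries. The lowest WT kidney was well above the highest Trpm2-/- kidney, and the level fell 3.99-fold (log2 fold change -1.99, standard error 0.235, edgeR adjusted p = 0.00182). Sardh, on the minus strand of chromosome 2 from 27188393 to 27248337, had 268, 289 and 312 CPM in WT and 93.9, 83 and 104 CPM in Trpm2-/- libraries. It had the smallest coefficient of variation of the members in WT, 7.69%, and fell 3.09-fold with no overlap (edgeR adjusted p = 0.00126). The ratio of Dmgdh to Sardh on the FPKM scale, 0.36 to 0.544 in WT and 0.259 to 0.437 in Trpm2-/- libraries, overlapped between genotypes (difference of mean log2 ratios -0.34, two-sided exact permutation test, p = 0.4).

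Bhmt and Dmgdh are close neighbors on chromosome 13, with Bhmt2 between them. Bhmt2, which encodes a relative of Bhmt that uses S-methylmethionine as its donor, lies on the minus strand from 93655720 to 93674302. Its start and that of Dmgdh point away from each other, with 130 bases between the annotated genes. Bhmt2 had 98.7, 117 and 126 CPM in WT and 22, 31.4 and 35.9 CPM in Trpm2-/- libraries. Like Dmgdh it was lower in every Trpm2-/- kidney, with a log2 fold change of -1.94 (standard error 0.192, edgeR adjusted p = 0.00126), against -1.99 for Dmgdh. Relative to Bhmt2, Bhmt was lower in each Trpm2-/- library than in any WT library. The FPKM ratio of Bhmt to Bhmt2 was 0.0201, 0.0353 and 0.0375 in WT and 0.00119, 0.00931 and 0.0112 in Trpm2-/- libraries (p = 0.1 by a two-sided exact permutation test, where 3 against 3 mice cannot give less).

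The sequence between Bhmt2, which is not one of the 10 members, and Dmgdh is shown because it spans the short gap between the annotated starts of this divergent pair, in which both genes were lower. It is the RefSeq promoter window of Dmgdh, 250 bases before to 50 after its start, on the plus strand of GRCm38.p6 at chr13:93674186-93674485. Capitals mark the 130 bases between the annotated genes, from 93674303 to 93674432, of which 70.8% are G or C.
Dmgdh and Bhmt2: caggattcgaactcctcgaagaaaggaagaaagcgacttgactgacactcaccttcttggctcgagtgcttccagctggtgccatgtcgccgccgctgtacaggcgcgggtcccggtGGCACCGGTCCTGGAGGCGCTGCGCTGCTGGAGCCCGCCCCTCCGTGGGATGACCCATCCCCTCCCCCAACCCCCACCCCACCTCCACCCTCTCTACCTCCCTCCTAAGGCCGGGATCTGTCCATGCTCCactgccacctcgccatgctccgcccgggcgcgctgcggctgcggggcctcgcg

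The window of Bhmt, the member with the lowest fold change, and that of Phgdh, the member whose fold change was above 0, are shown for comparison. The window of Bhmt lies on the minus strand at chr13:93637709-93638008 and that of Phgdh on the minus strand at chr3:98339920-98340219 of the same build. Bhmt as annotated in the deposited tables starts at 93637961, so most of its RefSeq window lies inside the gene. Capitals mark the letters matched by the motifs described in the next paragraph.
Bhmt: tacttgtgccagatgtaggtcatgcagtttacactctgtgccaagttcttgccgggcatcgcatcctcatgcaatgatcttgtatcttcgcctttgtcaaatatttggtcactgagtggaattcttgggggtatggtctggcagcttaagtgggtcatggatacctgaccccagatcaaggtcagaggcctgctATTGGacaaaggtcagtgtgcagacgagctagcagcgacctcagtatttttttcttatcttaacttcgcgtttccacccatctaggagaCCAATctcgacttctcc
Phgdh: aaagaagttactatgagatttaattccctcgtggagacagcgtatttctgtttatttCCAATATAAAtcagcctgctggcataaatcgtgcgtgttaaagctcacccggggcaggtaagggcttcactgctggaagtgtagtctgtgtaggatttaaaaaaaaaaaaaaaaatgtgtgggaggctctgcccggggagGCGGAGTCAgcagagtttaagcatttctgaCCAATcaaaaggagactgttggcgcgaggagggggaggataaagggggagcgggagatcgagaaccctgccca

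A window was given in RefSeq for 9 of the 10 members, and Cth was the one without. The windows of Sardh (chr2:27247254-27247553) and Shmt1 (chr11:60811216-60811515) lie wholly inside the annotated genes, and that of Bhmt mostly. For these 3 members the letters are thus not those before the annotated start of the gene. Exact letters were searched on both strands of these windows and of all 32851 windows. The CCAAT box (CCAAT) occurred in 7 of the 9 members' windows, those of Ahcy, Bhmt, Cbs, Gatm, Gldc, Phgdh and Shmt1, and in 37.4% of all windows. Phgdh was the only member with the core of the antioxidant response element (TGACNNNGC, in 12.4% of all windows), 53 to 45 bases before its start on the opposite strand. It was also the only member with the letters of a TATA box (TATAAA, in 13.6% of all windows). They lie 189 to 184 bases before its start and begin on the last letter of a CCAAT box. The core letters of an HNF1 site (GTTAAT, in 7.1% of all windows), a site of HNF4 (CAAAGTCCA, 0.475%) and a site of C/EBP and ATF factors (TTGCATCA, 0.895%) were found in 0 of the members' windows. These matches describe letters and not binding. CG dinucleotides numbered 4 in the window of Sardh, 8 in that of Bhmt and 25 in that of Dmgdh, against a median of 7 over all windows.

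Gldc encodes glycine decarboxylase, the P protein of the glycine cleavage system, which splits glycine in mitochondria and passes a carbon to folate. It lies on chromosome 19 from 30098449 to 30175418, on the minus strand, and its principal transcript has 25 exons. Its values were 501, 762 and 478 CPM in WT and 408, 223 and 243 CPM in Trpm2-/- libraries 1, 2 and 4. The groups were apart, but Trpm2-/- library 1 came close to the lowest WT library, and WT library 2 was well above the others. The log2 fold change was -0.99 (standard error 0.263, edgeR adjusted p = 0.0389). The adjusted p was 0.0539, 0.151 and 0.0686 without WT replicate 1, 2 or 3, 0.0883 and 0.0947 without Trpm2-/- replicate 2 or 4, and 0.0167 without Trpm2-/- replicate 1. It was also above the threshold with the replicate number as a block (0.0933), a fit that compares libraries 1 and 2 only. The call of Gldc was thus lost on leaving out 5 of the 6 libraries in turn, while its fold change stayed below 0 each time.

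Shmt1 encodes the cytosolic serine hydroxymethyltransferase, which interconverts serine and glycine while loading folate with a single carbon. It lies on chromosome 11 from 60788104 to 60811718, on the minus strand. Shmt1 had 48.3, 43.5 and 55.1 CPM in WT and 24.7, 27.9 and 30.4 CPM in Trpm2-/- libraries. The groups did not overlap, with a log2 fold change of -0.82 (standard error 0.144, edgeR adjusted p = 0.00749), and by limma on log2(FPKM + 0.1) its adjusted p was 0.0731. An exon of Smcr8, on the opposite strand, overlaps with Shmt1 and holds 2.7% of its 75-base windows. Whether counting used strand is not given in the sources used here. Smcr8 was higher in Trpm2-/- kidneys, with a log2 fold change of 0.65 (edgeR adjusted p = 0.0238).

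Gatm encodes glycine amidinotransferase, which joins arginine and glycine to guanidinoacetate, the precursor of creatine. It lies on chromosome 2 from 122594467 to 122611303, on the minus strand, and none of its 75-base windows occurs in another gene (0%). Its values were 51.6, 41.8 and 43.9 CPM in WT and 44.1, 36.4 and 35.7 CPM in Trpm2-/- libraries, so the groups overlapped. The log2 fold change was -0.24 (standard error 0.143, edgeR adjusted p = 0.307), which no setting brought under the threshold (adjusted p 0.157 to 0.594). Relative to Cth, Gatm was higher in every Trpm2-/- library. The FPKM ratio of Gatm to Cth was 0.243, 0.183 and 0.159 in WT and 0.665, 0.513 and 0.47 in Trpm2-/- libraries (p = 0.1 by the same exact permutation test).

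Phgdh encodes phosphoglycerate dehydrogenase, the first enzyme of serine synthesis from a glycolytic intermediate. It lies on chromosome 3 from 98313170 to 98339990, on the minus strand. It had 35.7, 22.1 and 24.6 CPM in WT and 37.3, 61.2 and 24.5 CPM in Trpm2-/- libraries 1, 2 and 4. Library 4 lay within the WT values, whereas library 2 was the highest of all 6. The log2 fold change was 0.58 (standard error 0.307, edgeR adjusted p = 0.255), and 0.17 without Trpm2-/- replicate 2 against 0.84 without Trpm2-/- replicate 4. With no filter on low counts its adjusted p in edgeR was 0.0149, with a smaller standard error of 0.173. Of its 75-base windows, 35.8% occur in 13 other genes, and with their counts added to Phgdh the log2 fold change was 0.59. Within a library, the FPKM ratio of Phgdh to Shmt1 was 1.16, 0.794 and 0.697 in WT and 2.36, 3.42 and 1.26 in Trpm2-/- libraries, without overlap (p = 0.1 by the same exact permutation test).

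**Figure D2:**
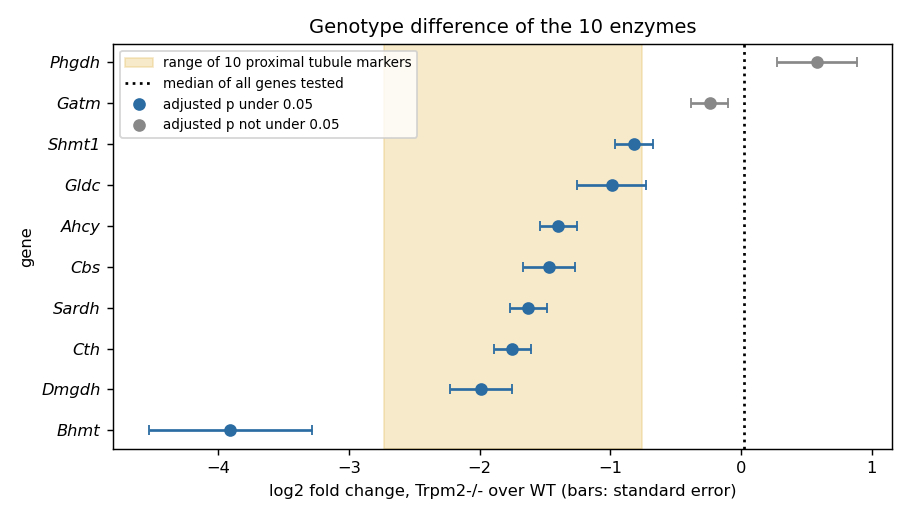
Log2 fold changes of the 10 enzymes, Trpm2-/- over WT, from edgeR, with bars for the standard error, blue for an adjusted p under 0.05 and grey otherwise. The shaded range of the 10 proximal tubule markers, -2.73 to -0.76, holds 7 enzymes, with Bhmt (-3.91) below it and Gatm (-0.24) and Phgdh (0.58) above it.

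In total 9 such ratios between members or their partners were computed, chosen after the values were seen, and 6 were without overlap between genotypes. Each of these 6 had an exact p of 0.1, or 0.15 after Benjamini-Hochberg adjustment over the 9 ratios. The ratio of Gldc to Shmt1 was 10.7, 18.1 and 8.98 in WT and 17.1, 8.27 and 8.28 in Trpm2-/- libraries. These values overlapped, with a difference of the mean log2 ratios of -0.19 (two-sided exact permutation test, p = 0.5). With 3 against 3 mice this test cannot give a p below 0.1. It therefore cannot decide whether both genes changed alike.

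**Figure D3:**
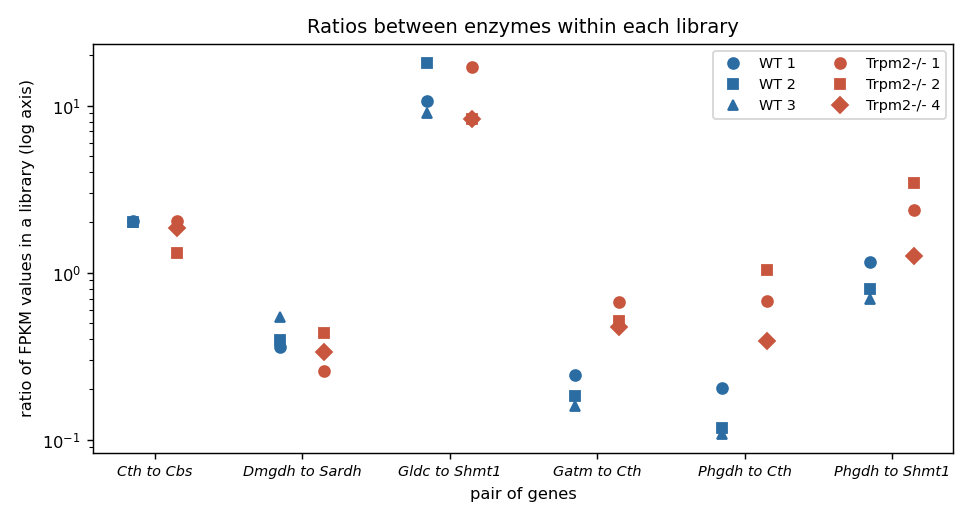
FPKM ratios between pairs of enzymes within each library, on a log axis, with 1 point per mouse. The ratios of Gatm to Cth, Phgdh to Cth and Phgdh to Shmt1 are higher in every Trpm2-/- library than in any WT library, and those of Cth to Cbs, Dmgdh to Sardh and Gldc to Shmt1 overlap.

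The order of the members by level was compared on the FPKM scale. In WT kidneys Gldc had the highest level (135 ± 36.8 FPKM, SD, n = 3), followed by Ahcy (97.8 ± 11.9), Cth (69.6 ± 9.31), Sardh (46.6 ± 3.44), Cbs (34.3 ± 4.75) and Dmgdh (20.4 ± 6.1). Then came Gatm (13.3 ± 1.52), Shmt1 (11 ± 1.29) and Phgdh (9.67 ± 2.57), whose ranges overlapped with their neighbors, and last Bhmt (1.28 ± 0.51). In Trpm2-/- kidneys Gldc (68.5 ± 23.8 FPKM), Ahcy (37.5 ± 1.83), Cth (20.9 ± 1.53) and Sardh (15.2 ± 1.8) kept the first 4 places. Phgdh, at rank 9 in WT, was at rank 5 (14.5 ± 6.51), with a range that overlapped with those of its neighbors Sardh and Cbs. Dmgdh, at rank 6 in WT, was at rank 9 (5.16 ± 1.05), and its range overlapped with that of Shmt1. Bhmt was last in both genotypes (0.0858 ± 0.0692 in Trpm2-/- kidneys).

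Among the WT libraries, number 3 was the highest in 7 of the 10 members and number 1 the lowest in 6. The summed proximal tubule markers were likewise highest in WT library 3, with 4773, 5310 and 6423 CPM in WT libraries 1, 2 and 3. In the Trpm2-/- libraries no number stood out, with 3, 3 and 4 members highest in libraries 1, 2 and 4. In Trpm2-/- library 1, Ahcy, Gldc and Gatm were highest and Cth, Cbs, Bhmt, Dmgdh and Shmt1 were lowest.

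The other enzymes of these pathways were examined in lists of 61 genes. In the list of the methionine cycle and methylation, 10 of 12 genes were tested, of which 3 were lower and 1 was higher at an adjusted p under 0.05 in edgeR, with a median log2 fold change of -0.36. Lower were Bhmt2, described above, Gnmt (-2.31), which moves a methyl group to glycine and so makes sarcosine, and Adk (-0.72), which removes the adenosine released by Ahcy. Mtr, the folate-dependent methionine synthase that shares its substrate homocysteine with Bhmt, was the gene called higher and was named after its values were seen. It had 24, 21.8 and 21.7 CPM in WT and 42.5, 34.9 and 30 CPM in Trpm2-/- libraries, with a log2 fold change of 0.67 (edgeR adjusted p = 0.0263). The FPKM ratio of Bhmt to Mtr was 0.285 to 0.753 in WT and 0.00213 to 0.0462 in Trpm2-/- libraries. Mat1a, the liver form of the enzyme that makes S-adenosylmethionine, was under the filter on low counts, with 0 counts in every WT library.

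In the list of choline, betaine and sarcosine breakdown, 3 of 6 genes were lower, with a median of -1.08. Pipox (-1.36) oxidizes sarcosine and pipecolate, Aldh7a1 (-1.06) oxidizes betaine aldehyde, and Etfa (-1.09) is a subunit of the flavoprotein that accepts electrons from Dmgdh and Sardh. All 3 partners of Gldc in glycine cleavage were lower. They are Amt (-1.27), Gcsh (-0.64) and Dld (-0.57), and Amt had 71.6, 78.6 and 80.3 CPM in WT and 31.8, 30.2 and 33.4 CPM in Trpm2-/- libraries, without the spread seen for Gldc.

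In the list of serine synthesis and glycine-serine turnover, 9 of 12 genes were tested and 4 were lower, with a median of -0.98. Shmt2 (-1.33), the mitochondrial counterpart of Shmt1, had 184, 209.9 and 223 CPM in WT and 82.4, 75.6 and 86.8 CPM in Trpm2-/- libraries. Agxt2 (-1.41), a mitochondrial aminotransferase that uses glyoxylate, and Glyctk (-0.98), a glycerate kinase, were lower too. The enzymes that follow Phgdh in serine synthesis, named after their values were seen, did not pass the test. Psat1 had 148, 237 and 90.7 CPM in WT and 323, 188 and 109 CPM in Trpm2-/- libraries (log2 fold change 0.38, edgeR adjusted p = 0.585), and Psph had a log2 fold change of -0.34 (edgeR adjusted p = 0.239).

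Of 10 folate enzymes, 4 were lower, with a median of -0.31. Among them were Aldh1l1 (-1.36), which oxidizes formyl folate to carbon dioxide, Mthfd1 (-1.12), which interconverts single-carbon folates in the cytosol, and Ftcd (-1.48), which takes a carbon from histidine breakdown. Of 10 enzymes of cysteine, taurine and sulfide, 6 were lower, with a median of -0.72. Tst (-1.58) and Mpst (-1.51) are sulfurtransferases of sulfide metabolism, and Csad (-1.28) makes the precursor of taurine. Of 8 genes of creatine and arginine handling, 5 were lower, with a median of -0.63. Gamt (-1.34), which methylates the product of Gatm to creatine, had 13.9, 14.6 and 16.2 CPM in WT and 5.75, 6.35 and 5.48 CPM in Trpm2-/- libraries. Ass1 (-1.21), which makes the arginine precursor, and Oat (-0.60), an ornithine aminotransferase, were also lower. The FPKM ratio of Gamt to Gatm was 0.559 to 0.767 in WT and 0.271 to 0.363 in Trpm2-/- libraries.

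**Figure D4:**
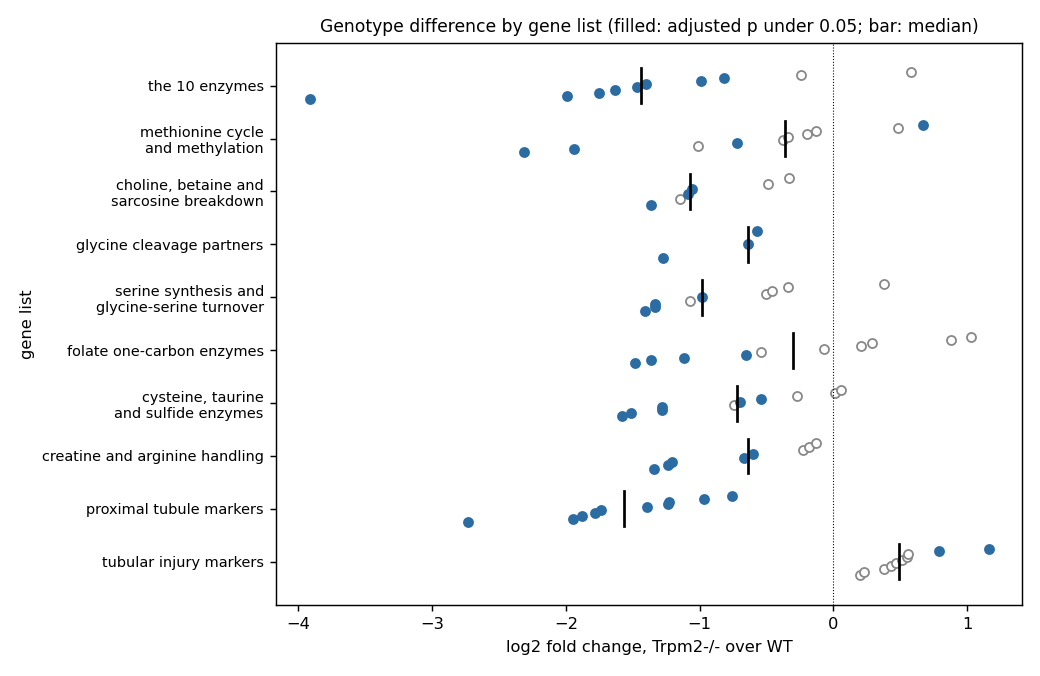
Log2 fold changes, Trpm2-/- over WT, of the tested genes of each list, with filled points for an adjusted p under 0.05 in edgeR and a bar at the median. The median of the 10 enzymes is -1.43, the medians of the other pathway lists lie between -1.08 and -0.31, that of the proximal tubule markers is -1.57 and that of the tubular injury markers is 0.49.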

How the data were processed

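The starting material was total RNA of whole kidneys (Trizol), sequenced as NEBNext Ultra II libraries. The authors deposited read counts per gene, without normalization, and FPKM values, which equal these counts divided by gene length and a library total. HISAT2, StringTie and mm9 are named in the submitters' processing notes, without roles, but positions in the tables match GRCm38, the build used here (release 21 of GENCODE gives slightly other ends for Cbs and Gldc). Whether counting used strand is not given in the sources used here. The analysis of counts used edgeR 4.0.16 in R 4.3.3 (filterByExpr, TMM, two-sided quasi-likelihood test of genotype, Benjamini-Hochberg adjustment over all 15816 genes tested). Standard errors were derived from the log2 fold change and its F value. CPM, or counts scaled to a common library size, used TMM-normalized library sizes. The p of the fold change threshold in the methods of the study was taken as unadjusted. Alternatives used DESeq2 1.42.0, limma 3.58.1, other filters and scalings, a replicate block and each mouse left out. The fits were tested on simulated data. The labels number the kidneys within a genotype and say no more of how they were collected, so p-values measure the spread between these samples, which may be technical in part.

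Members and gene lists were chosen with earlier results of these data known. Named by rule in the text are all members, Trpm2, up to 3 genes of each pathway list with the smallest p, and up to 3 markers of a list with the highest CPM. Other listed genes, such as Mtr, Mat1a, Psat1, Psph, Krt20, Sox9, Alb, Cps1 and Slc4a1, were named outside this rule with their values known. Copies of members and genes that overlap with them were named as well. Shared windows of 75 bases came from transcripts of the GENCODE mouse annotation, release 21. Promoter windows are RefSeq's. The ratios were chosen after the counts were seen.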

Additional observations from a re-analysis of the deposited data

How the results depend on the processing

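Over 19 alternatives, all 190 log2 fold changes of the 10 members kept their direction, 177 also their side of the threshold, 12 lost an adjusted p under 0.05 and 1 gained it. Of the 12, 9 were those of Gldc. The count of members lower at an adjusted p under 0.05, 8, was 5 by limma on log2(FPKM + 0.1), 6 and 7 by limma on log2(FPKM + 1) without and with a filter, and 7 to 8 with each mouse left out. The count of members higher, 0, was 1 with no filter on low counts (Phgdh, with a standard error of 0.173 against 0.307), and the causes were not tested. At the threshold with a fold change, the count of 6 was 6 to 7 with each mouse left out. Numbers 1 and 2 occur in both genotypes but mark different mice, and deviations of same-numbered libraries correlated at 0.0641 and -0.012. With the replicate number as a block, 7 members were lower, without Gldc, and 661 genes were lower and 341 higher over all genes, against 1152 and 750. Over all genes, limma called 186 lower and 86 higher on log2(FPKM + 0.1), 766 and 324 on log2(FPKM + 1), and 526 and 255 on that scale unfiltered, and edgeR called 1692 and 1262 with no filter. With each mouse left out, 470 to 1240 were lower and 160 to 819 higher. The lowest were 470 and 160 without WT replicate 3, 521 and 176 without WT replicate 2, and 848 and 421 without Trpm2-/- replicate 1. Depth limits Bhmt most, with 1 to 15 reads in Trpm2-/- libraries.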
